A study of Mus musculus with 12 samples.

Results

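Bcl6, Cxcr5 and Maf are 3 genes of the T follicular helper programme, and they were taken by symbol from the 10073 genes of the deposited table. All 3 passed the filter (average of 0.5 RPKM or more) that left 10021 genes for testing, RPKM being the reads of a gene scaled to its length and to the depth of the library. RNA-seq was done on naive CD4 T cells of 3 untreated mice, each sorted into 4 populations, which gives 12 libraries. Every mouse carried the Tg(Nr4a1-EGFP)GY139Gsat reporter, here called Nur77-GFP, and the Foxp3tm1Flv targeted mutation, which reports Foxp3 with RFP, on a C57/BL6 background. The ages of the animals are not given in the labels. Cells from spleen and lymph nodes were sorted as CD4+, Foxp3-RFP negative and low in CD44. Population D was Nur77-GFP high and Ly6C negative, C was GFP intermediate and Ly6C negative, B was GFP intermediate and Ly6C positive, and A was GFP low and Ly6C positive. In the reporter, regulatory sequence of Nr4a1, a gene that T cell receptor (TCR) signalling induces, drives GFP, so GFP stands for recent TCR signal and not for the Nr4a1 transcript itself. Library D1 is population D of mouse 1, and so on.

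T follicular helper cells are CD4 T cells that enter B cell follicles and help B cells form germinal centres. Bcl6 is the transcriptional repressor that defines the lineage, and its gene product opposes Prdm1, which encodes the repressor Blimp-1. Cxcr5 encodes the chemokine receptor that draws cells towards the follicle, where its ligand CXCL13 is made. Maf encodes the bZIP transcription factor c-Maf, which promotes interleukin 21 expression in these cells. Naive cells are not follicular helper cells, and strong TCR signalling is one of the inputs that favour this fate after activation. RNA here comes from sorted bulk cells, in which more cells carrying a transcript and more transcript per cell cannot be told apart.

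Of the 3 genes, Bcl6 was found in the RefSeq promoter table (GRCm38.p6), with 2 annotated starts. The 250 bases before each start are shown for Bcl6 alone, since Cxcr5 and Maf had no window in that table. Capitals mark matches, on either strand, to any of 10 motifs searched.

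Bcl6 upstream start, chr16:23988853-23989102, minus strand: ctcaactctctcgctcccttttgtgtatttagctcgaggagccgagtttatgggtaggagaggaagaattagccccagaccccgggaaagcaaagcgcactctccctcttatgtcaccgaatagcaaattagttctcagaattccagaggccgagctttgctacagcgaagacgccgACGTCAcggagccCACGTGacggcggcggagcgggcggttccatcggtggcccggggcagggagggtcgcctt

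Bcl6 downstream start, chr16:23981284-23981533, minus strand: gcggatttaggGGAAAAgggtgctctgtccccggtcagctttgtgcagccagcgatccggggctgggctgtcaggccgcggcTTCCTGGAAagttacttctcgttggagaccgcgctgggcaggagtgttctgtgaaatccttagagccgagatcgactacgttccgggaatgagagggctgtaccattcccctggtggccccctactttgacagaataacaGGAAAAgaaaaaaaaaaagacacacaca

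The window before the downstream start held TTCCTGGAA at position -168 from the start. This matches TTCCTNGAA, the form of the BCL6 and STAT motif searched, which was present in 1.31% of the 32851 promoter windows in the table. Looser forms of the STAT motif were not searched in either window. The downstream window also held 2 matches to the NFAT motif GGAAAA, at -239 and -28, found in 20.4% of windows. The window before the upstream start held the partial CRE motif TGACGT, on the opposite strand as ACGTCA at -73, and the E-box CACGTG at -60, found in 6.47% and 6.02% of windows. Neither window matched the NR4A motif AAAGGTCA, the EGR motif GCGTGGGCG, the AP-1 motif TGANTCA, the full CRE TGACGTCA, which contains the partial one, the FOXO motif GTAAACA or the partial MAF motif TGCTGAC. These matches describe the letters and say nothing of binding.

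Several libraries went against their labels, so populations are called by their labelled letter. Nr4a1, the gene behind the reporter, stood at 58.7, 64.7 and 67.8 RPKM in D1, D2 and D3, against 26.3, 28.3 and 23.4 RPKM in C1, C2 and C3. It stood at 35.97, 73.3 and 64.6 RPKM in B1, B2 and B3, against 57.7, 26.1 and 22.9 RPKM in A1, A2 and A3. A1, labelled GFP low, was therefore close to D in this transcript, and B1 was below B2 and B3. Ly6c1, a gene that encodes Ly6C, ran from 38.2 to 48.4 RPKM in D and from 59.3 to 67.04 RPKM in C, both labelled Ly6C negative. It ran from 37.1 to 50.2 RPKM in B and from 58.1 to 72.6 RPKM in A, both labelled Ly6C positive. C3 also held 709 RPKM of Jchain, an antibody joining chain made by plasma cells, against 0.515 to 6.33 RPKM in the other 11 libraries. Depth recovered from the RPKM values was 6.31 M (A3) to 9.07 M reads (C1). Cd4, the marker of the sorted lineage, stood at 224 to 229 RPKM in D, 227 to 249.5 in C, 224 to 239 in B and 226 to 237 in A.

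Bcl6 was 18.8 RPKM in D1, 20.7 in D2 and 19.9 in D3, against 6.85 RPKM in C1, 6.66 in C2 and 7.28 in C3. The D and C libraries did not overlap, and the lowest D library was above every C library. Bcl6 was 7.62 RPKM in B1, 20.6 in B2 and 18.9 in B3, against 18.7 RPKM in A1, 7.64 in A2 and 7.05 in A3. In B and A, mouse 1 lay opposite to mice 2 and 3, with A1 at the level of D and B1 at the level of C. The 12 values left a space with no library between 7.64 RPKM (A2) and 18.7 RPKM (A1).

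Cxcr5 followed the same division of libraries. It was 12.7 RPKM in D1, 13.5 in D2 and 13.4 in D3, against 4.52 RPKM in C1, 5.04 in C2 and 5.24 in C3. It was 5.13 RPKM in B1, 14.1 in B2 and 15.0 in B3, against 12.6 RPKM in A1, 4.83 in A2 and 3.67 in A3. The highest library was B3 and the lowest A3, 4.09-fold apart, and no library lay between 5.24 RPKM (C3) and 12.6 RPKM (A1).

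Maf was the least abundant per length. It was 9.71 RPKM in D1, 10.2 in D2 and 8.52 in D3, against 3.24 RPKM in C1, 3.64 in C2 and 2.94 in C3. It was 3.50 RPKM in B1, 9.62 in B2 and 7.80 in B3, against 10.1 RPKM in A1, 4.11 in A2 and 3.13 in A3. A1 and D2 were the highest, and no library lay between 4.11 RPKM (A2) and 7.80 RPKM (B3).

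**Figure D1:**
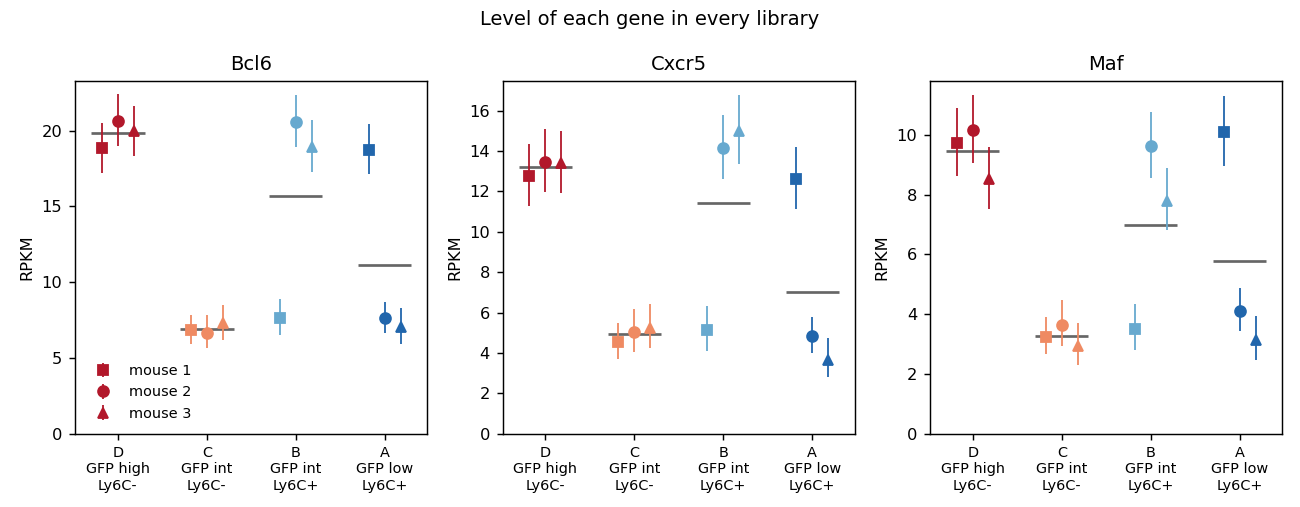
RPKM of Bcl6, Cxcr5 and Maf (vertical axes, from 0) in populations D, C, B and A. Each point is 1 library with its marker giving the mouse, its bar is the 95% counting interval from recovered reads, and the grey line is the mean of 3 libraries. All D libraries lie above all C libraries for each gene, while mouse 1 stands opposite to mice 2 and 3 in B and A.

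In every library the order of the 3 genes per length was Bcl6, then Cxcr5, then Maf. The ratio of Bcl6 to Cxcr5 in RPKM was 1.49 ± 0.161 over the 12 libraries (SD; lowest 1.26 in B3, highest 1.92 in A3), and that of Bcl6 to Maf was 2.12 ± 0.224 (lowest 1.83 in C2, highest 2.48 in C3). Both ratios thus moved less between libraries than the 3.10-fold range of Bcl6 itself. Against all tested genes, Bcl6 lay above 63.3% to 66.2% of them in the D libraries, against 29.97% to 32.2% in the C libraries. Cxcr5 lay above 49.6% to 51.4% in D, against 20.6% to 23.6% in C. Maf lay above 36.7% to 41.7% in D, against 12.97% to 17.1% in C.

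The read numbers behind these levels were modest. Bcl6 had 514 to 569 reads in D, against 150 to 204 in C. Cxcr5 had 279 to 306 reads in D and 91 to 108 in C, and Maf 269 to 310 in D and 73 to 107 in C. The spread between mice within D was 4.68% of the mean for Bcl6, 2.99% for Cxcr5 and 8.94% for Maf, where counting alone gives 4.27%, 5.84% and 5.87%. Within C it was 4.58%, 7.48% and 10.8% in the same gene order, where counting gives 7.68%, 10.1% and 10.7%. Within B and A the spread was 44.9% to 69.1%, where counting gives at most 9.83%. Counting intervals and these expected spreads cover counting error only.

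Comparing D with C asks how GFP high cells differ from GFP intermediate cells among those labelled Ly6C negative. The transcript Ly6c1 was lower in D than in C in 3 of 3 mice, so this is no GFP step at equal Ly6c1. Its log2 differences were -0.58, -0.46 and -0.63 in mice 1, 2 and 3. Bcl6 averaged 19.8 ± 0.927 RPKM in D and 6.93 ± 0.318 RPKM in C (SD, n = 3 each), 2.86-fold apart. Cxcr5 averaged 13.2 ± 0.395 RPKM in D and 4.93 ± 0.369 RPKM in C, 2.68-fold apart. Maf averaged 9.46 ± 0.846 RPKM in D and 3.27 ± 0.353 RPKM in C, 2.89-fold apart. All 3 genes were higher in D in 3 of 3 mice, and their groups did not overlap, as was so in that direction for 14.1% of all genes tested.

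In limma fitted to all 12 libraries, on log2(RPKM + 0.5) with Benjamini-Hochberg adjustment over all genes, none of the 3 passed the threshold of 0.05, and 0.00998% of all genes did (1 of 10021, against 1817 at an unadjusted p under 0.05). The log2 difference of D minus C was 1.45 ± 0.36 for Bcl6 (± SE, adjusted p = 0.106), 1.34 ± 0.40 for Cxcr5 (adjusted p = 0.126) and 1.40 ± 0.36 for Maf (adjusted p = 0.106). In that fit the spread is shared with B and A, where mouse 1 stands apart. Leaving out A1 alone or B1 alone brought all 3 past the threshold (highest adjusted p 0.0409). Of all 10021 genes, 288 were then called without A1 and 398 without B1. Fitted on the 6 libraries of D and C alone, all 3 rose in D, where 4.8% of all genes tested were called, 3.35% higher and 1.45% lower. The log2 differences stayed the same and the SE shrank, to 1.45 ± 0.07 for Bcl6 (limma adjusted p = 1.91e-05), 1.34 ± 0.08 for Cxcr5 (5.96e-05) and 1.40 ± 0.10 for Maf (0.000181). Ranked by log2 difference among the 10021 genes, Bcl6 was at place 45, Maf at 50 and Cxcr5 at 54. Without C3 the fit of 5 libraries gave 1.48 for Bcl6, 1.38 for Cxcr5 and 1.34 for Maf, all past the threshold, with 6.5% of all genes called, 4.48% higher and 2.02% lower. A two-sided exact permutation test of D against C gave p = 0.1 for each gene, the smallest that 3 against 3 libraries allow.

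By mouse, the log2 difference of D minus C in Bcl6 was 1.40, 1.56 and 1.39 in mice 1, 2 and 3. In Cxcr5 it was 1.40, 1.33 and 1.28, and in Maf 1.45, 1.36 and 1.39. The steps of the 3 genes in the 3 mice thus all lay between 1.28 and 1.56 on the log2 scale. For Nr4a1 itself the step was 1.14, 1.18 and 1.52.

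Comparing B with A sets the GFP intermediate gate against the GFP low gate within the Ly6C positive label. Bcl6 averaged 15.7 ± 7.06 RPKM in B and 11.1 ± 6.58 RPKM in A (SD, n = 3 each), Cxcr5 11.4 ± 5.47 in B and 7.04 ± 4.87 in A, and Maf 6.97 ± 3.14 in B and 5.78 ± 3.76 in A. In the 12-library fit none of the 3 passed, while 2.23% of all genes did. The log2 difference was 0.50 ± 0.36 for Bcl6 (limma adjusted p = 0.421), 0.71 ± 0.40 for Cxcr5 (0.307) and 0.31 ± 0.36 for Maf (0.647). Behind these means the mice moved in opposite directions. Bcl6 differed by -1.24 in mouse 1, against 1.37 in each of mice 2 and 3. Cxcr5 differed by -1.22, 1.46 and 1.89 and Maf by -1.40, 1.13 and 1.19 in mice 1, 2 and 3. Nr4a1 did likewise, with -0.67 in mouse 1 and 1.47 and 1.48 in mice 2 and 3.

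Without A1 and B1, 2 libraries set aside because of their values, which is no independent evidence, the 3 genes were called higher in B than in A, as were 6.66% of all genes (10.9% were called in either direction and 4.26% lower). The log2 difference of B minus A was then 1.37 ± 0.08 for Bcl6 (limma adjusted p = 5.89e-06), 1.68 ± 0.12 for Cxcr5 (1.59e-05) and 1.16 ± 0.15 for Maf (0.00101). In the same fit of 10 libraries D minus C gave calls for all 3 as well, with 7.63% of all genes called, 5.05% higher. The same limit holds for every other result given without A1 and B1.

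**Figure D2:**
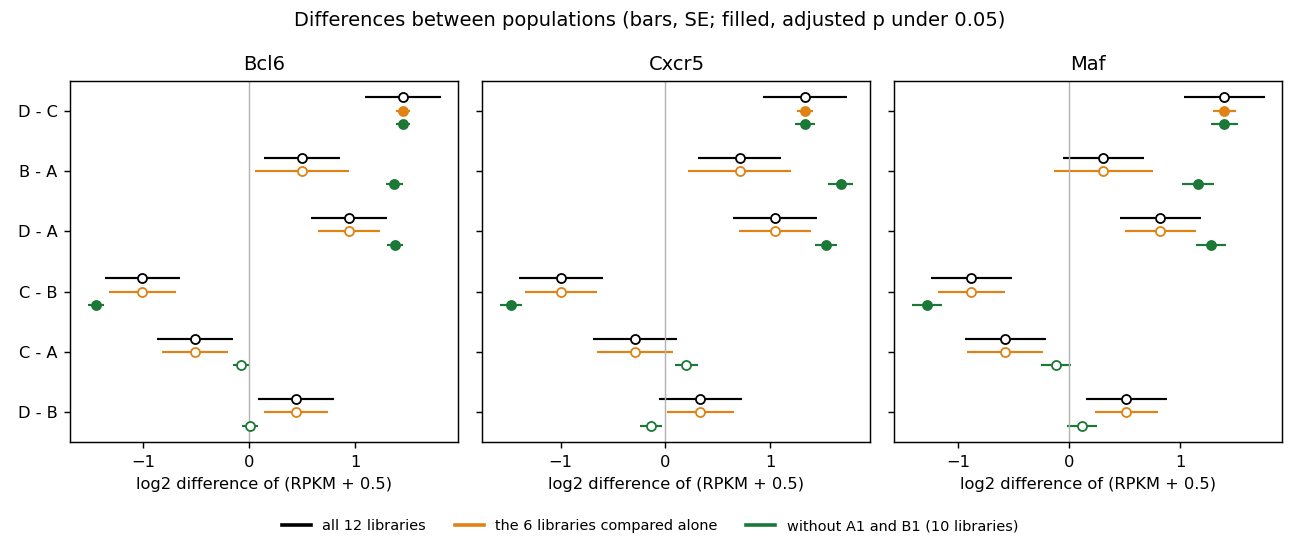
Log2 difference of (RPKM + 0.5) for each pair of populations (rows, first population minus second) and gene (panels), with SE bars, from 3 fits. Filled points passed an adjusted p of 0.05. D minus C is the same in every fit and passes without A1 and B1, while B minus A lies between 0.31 and 0.71 with all 12 libraries and between 1.16 and 1.68 without A1 and B1.

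Between the ends of the sort, D and A, the 12-library log2 difference was 0.94 ± 0.36 for Bcl6, 1.05 ± 0.40 for Cxcr5 and 0.82 ± 0.36 for Maf, with limma adjusted p values of 0.202, 0.202 and 0.251. None passed, where 0.00998% of all genes did. The lowest D library was above every A library for Bcl6 (18.8 against 18.7 RPKM) and Cxcr5 (12.7 against 12.6 RPKM), as in 14.1% of genes tested, and A1 set both margins. For Maf, A1 at 10.1 RPKM was above D1 and D3. Without A1 and B1 the differences were 1.37, 1.54 and 1.28 and all passed (8.84% of genes called, 6.08% higher).

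Comparing C with B sets the Ly6C negative label against the positive one among cells labelled GFP intermediate, but the transcript Ly6c1 ran against these labels, higher in C than in B in 3 of 3 mice (by 0.41, 0.84 and 0.41 on the log2 scale in mice 1, 2 and 3). The log2 difference was -1.01 ± 0.36 for Bcl6, -1.0 ± 0.40 for Cxcr5 and -0.88 ± 0.36 for Maf, with limma adjusted p values of 0.287, 0.323 and 0.332, in a comparison where 0.00998% of all genes passed. C was lower than B in 3 of 3 mice for each gene, by 0.10 to 0.16 in mouse 1 and by 1.27 to 1.56 in mice 2 and 3. Without A1 and B1 the differences were -1.45, -1.47 and -1.28, all past the threshold, with 7.74% of all genes called, 4.98% lower. All C libraries were below all B libraries for Bcl6, as in 8.83% of genes tested, with C3 (7.28 RPKM) just under B1 (7.62 RPKM). Although both gates were labelled GFP intermediate, Nr4a1 was also lower in C than in B in 3 of 3 mice.

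In the remaining pairs, for C minus A the log2 difference was -0.51 for Bcl6, -0.29 for Cxcr5 and -0.58 for Maf, and for D minus B it was 0.44, 0.34 and 0.52, with limma adjusted p values of 0.466 to 0.964. In each of these pairs 0% of all genes were called (1422 for C minus A and 410 for D minus B at an unadjusted p under 0.05), although without C1 the count for C minus A was 322. Without A1 and B1 the signs of Cxcr5 turned in both pairs, to 0.20 for C minus A and -0.14 for D minus B, and none of the 3 genes passed. The F test over the 4 populations gave adjusted p = 0.139 for Bcl6, 0.168 for Cxcr5 and 0.158 for Maf by limma, with 0.00998% of all genes called (9.63% without A1 and B1, when all 3 genes passed). The difference between the D minus C step and the B minus A step was 0.95 ± 0.51, 0.63 ± 0.57 and 1.09 ± 0.52 for the 3 genes, with limma adjusted p values of 0.395, 0.604 and 0.345, and 0% of all genes were called (1507 at an unadjusted p under 0.05, and 261 called without C1). This difference was 0.08 for Bcl6, -0.34 for Cxcr5 and 0.24 for Maf without A1 and B1, when limma called 0 genes (1068 at an unadjusted p under 0.05). Ordered by mean over 3 libraries, each gene ran D, B, A, C from high to low, and in this order D and B, B and A, and A and C did not differ beyond their spread.

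By gate, Bcl6 was 18.8, 19.9 and 20.7 RPKM (lowest, median, highest) in GFP high libraries, against 6.66, 7.45 and 20.6 in the 6 GFP intermediate libraries (exact permutation p = 0.143). In Cxcr5 the same gates gave an exact permutation p of 0.238 and in Maf 0.0476. Of 27 exact tests in this family, Benjamini-Hochberg adjusted values were 0.386 or more. All of them permuted libraries without regard to mouse, although each mouse gave more than 1 library. Across the Ly6C labels, Bcl6 had a median of 13.1 RPKM in the 6 libraries labelled negative and 13.2 RPKM in the 6 labelled positive (exact permutation p = 0.753), with exact permutation p = 0.926 for Cxcr5 and 0.881 for Maf. Since Ly6c1 was higher in C than in B, these labels do not order the libraries by that transcript. The 6 libraries highest in Nr4a1 were also the 6 highest in each of the 3 genes. Other genes, among them Pou2f2 and Izumo1r, which are named below because their profiles are like those of the 3 genes, divided the libraries in the same way. The share of all genes that did so was not counted.

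**Figure D3:**
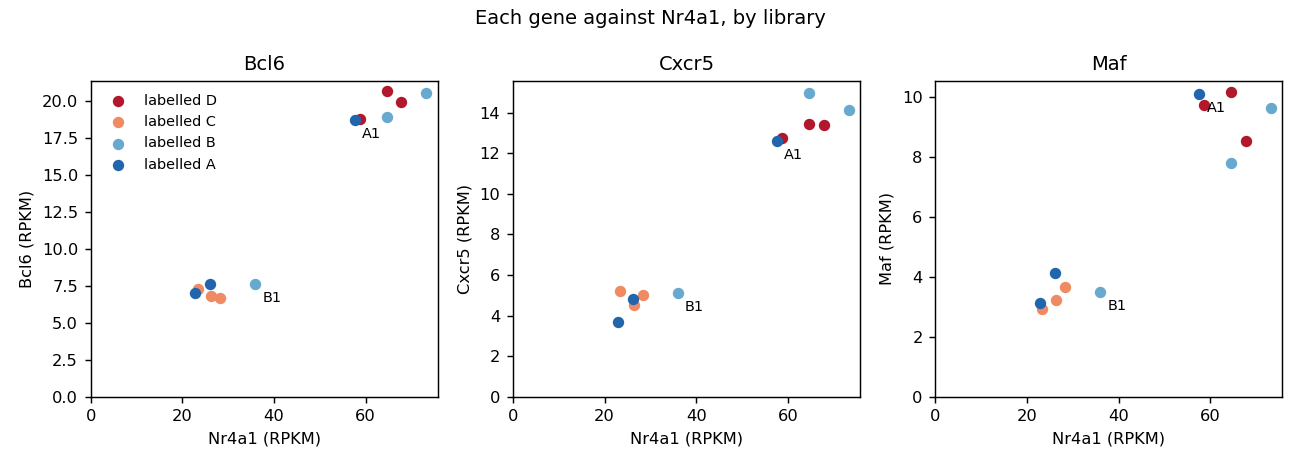
RPKM of Bcl6, Cxcr5 and Maf (vertical axes) against RPKM of Nr4a1 (horizontal axes) in the 12 libraries, coloured by labelled population. The 6 libraries with Nr4a1 of 57.7 RPKM or more, A1 among them, hold the 6 highest values of each gene, and B1, at 35.97 RPKM of Nr4a1, lies with the lower ones. The share of all genes divided in this way was not counted.

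The profiles of the 3 genes were close to one another. Likeness was measured as the root mean square difference between log2(RPKM + 0.5) values, each centred on the gene's own mean over the 12 libraries, among the 8849 genes that averaged 2 RPKM or more. Cxcr5 lay 0.13 log2 units from Bcl6 and was 3rd among its nearest genes. Maf lay 0.14 from Bcl6 and was 4th. Seen from Cxcr5 and from Maf, Bcl6 was the nearest of all 8849, whereas Cxcr5 and Maf lay 0.20 apart. The median gene lay 0.70 from Bcl6, and the root mean square of Bcl6 around its own mean was also 0.70. A gene that did not vary would lie that far, so the median mostly reflects the spread of Bcl6 itself. These libraries share mice, depth range and the division described above, so the distance is a description.

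The nearest gene to Bcl6 was Pou2f2 (0.08), which encodes the octamer-binding factor Oct-2. Pou2f2 was 12.5, 14.8 and 13.0 RPKM in D1, D2 and D3, against 4.09, 3.96 and 5.16 RPKM in C1, C2 and C3. Next came Ift80 (0.10), an intraflagellar transport gene, and after Cxcr5 and Maf came Tiam1 (0.14), an exchange factor for the GTPase Rac. For Cxcr5 the nearest after Bcl6 were the HMG-box factor gene Tox2 (0.13), Izumo1r (0.13), which encodes folate receptor 4, Pou2f2 (0.15) and Endod1 (0.16). For Maf they were Tiam1 (0.14), Ift80 (0.17), Itm2a (0.17) and Izumo1r (0.18). Pou2f2, Ift80, Tiam1 and Izumo1r thus each stood near more than 1 of the 3 genes.

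**Figure D4:**
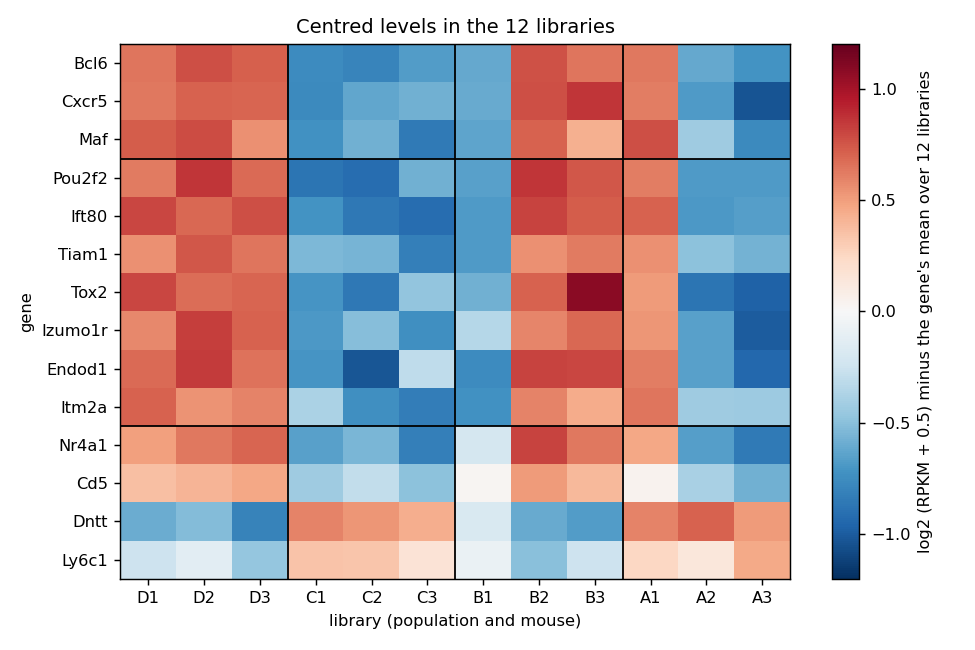
Log2(RPKM + 0.5) minus each gene's mean over 12 libraries (colour) in libraries ordered by population and mouse (columns), for the 3 genes, their nearest genes, and Nr4a1, Cd5, Dntt and Ly6c1 (rows). A1 is high and B1 low for the 3 genes and their neighbours, whereas in Dntt A1 (14.0 RPKM) is near A2 (15.2 RPKM) and B1 (7.91 RPKM) is nearer B2 (5.79 RPKM). The neighbours were picked for likeness over these same libraries, so their pattern follows from that choice.

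Mouse 1 did not lie opposite to mice 2 and 3 in every transcript. Dntt, the terminal transferase gene, was 7.91, 5.79 and 5.52 RPKM in B1, B2 and B3, against 14.0, 15.2 and 13.2 RPKM in A1, A2 and A3, and the groups did not overlap, as in 15.8% of all genes in that direction. Ly6c1 was also lower in B than in A in 3 of 3 mice, although both are labelled Ly6C positive. Cd5, whose protein level follows TCR signal strength, was 236, 332 and 305 RPKM in B1, B2 and B3, against 241, 177 and 156 RPKM in A1, A2 and A3, so that in mouse 1 it too was lower in B than in A, by a small margin.

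The other genes of the follicular helper programme were read from the fit of the D and C libraries alone, in lists by role that leave out the 3 genes. In that fit 3.35% of all genes were called higher and 1.45% lower, and without C3 4.48% and 2.02%. Of 16 receptors and signalling genes, 10 rose and 2 fell in D. The median log2 difference of the list was 0.57, against 0.01 for all genes tested. Pdcd1, the inhibitory receptor PD-1, rose by 2.23 ± 0.11 on the log2 scale (limma adjusted p = 1.91e-05), and stood at 8.54, 10.4 and 10.2 RPKM in D1, D2 and D3, against 1.77, 1.74 and 1.52 RPKM in C1, C2 and C3. Cd200, another inhibitory surface protein, rose by 1.93, Izumo1r by 1.35 and Il6st, the shared signalling chain of the interleukin 6 receptor, by 0.61. The costimulator gene Icos rose by 0.77 (24.6 to 28.4 RPKM in D, against 12.2 to 17.0 RPKM in C). The 2 that fell were Cd40lg (-0.37), the ligand by which helper cells activate B cells, and Il6ra (-0.32), the interleukin 6 receptor chain. Both are named as the exceptions, after their values were seen, and so is Icos.

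Among the cytokines listed, only Il21 was measured here, and it rose by 1.62 ± 0.16 (limma adjusted p = 0.000763). It was 1.75, 2.57 and 1.77 RPKM in D1, D2 and D3, against 0.320, 0.373 and 0.250 RPKM in C1, C2 and C3, which is low on the scale of this table. In A1 it was 2.10 RPKM and in B1 0.544 RPKM. Il4, Il10, Ifng and Il2 were not analysed here.

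Of 14 measured factors that promote the programme, 3 rose and 0 fell in D by limma (all genes, 3.35% and 1.45%), with a list median of 0.09. Tox2 rose by 1.40, its relative Tox by 0.84 and Id3, an inhibitor of E proteins, by 0.81. Id3 is known in mice to restrain follicular helper development as well, so its place in this list is uncertain. The naive-cell factors Tcf7 and Lef1, which lie upstream of Bcl6, had log2 differences of 0.08 and -0.02 that did not pass. C3 stood apart in this list. Pou2af1, the coactivator of octamer factors that is also made by plasma cells, was 15.2, 14.7 and 12.7 RPKM in D1, D2 and D3, against 3.74, 2.78 and 56.8 RPKM in C1, C2 and C3. Irf4, a factor of TCR signalling and of plasma cells, was 9.85, 10.9 and 8.80 RPKM in D1, D2 and D3, against 4.07, 3.42 and 34.3 RPKM in C1, C2 and C3. Without C3 the list held 5 that rose and 0 that fell (all genes, 4.48% and 2.02%), with Pou2af1 at 1.98 (adjusted p = 9.97e-06) and Irf4 at 1.28 (0.000106). Both are named after their values were seen.

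Of 12 measured factors that oppose the programme, 3 rose and 2 fell in D (all genes, 3.35% and 1.45%), with a list median of 0.14. The interleukin 2 receptor chains Il2rb (1.95) and Il2ra (1.32) and the factor Stat5a (0.33), which transmit signals that restrain Bcl6, rose. Il7r, the interleukin 7 receptor (-0.76), and Runx3 (-0.35), named after its value was seen, fell. Prdm1 was 1.67, 1.33 and 1.14 RPKM in D1, D2 and D3, against 2.46, 2.66 and 12.3 RPKM in C1, C2 and C3. Its log2 difference of -1.40 did not pass with C3 (adjusted p = 0.175) and was -0.71 without it (adjusted p = 0.0176). The count without C3 was 3 higher and 3 lower, Prdm1 being the added gene.

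Of 10 lymphoid positioning receptors measured beside Cxcr5, 0 rose and 2 fell in D by limma, Selplg (-0.26), the selectin ligand PSGL-1, and the integrin gene Itgb7 (-0.27). Ccr7, which holds cells in the T zone, had a log2 difference of -0.14 (adjusted p = 0.247). Without C3, Cxcr4 also passed, at 0.42 (adjusted p = 0.0307). Of 12 Bcl6 corepressor genes, 0 rose and 0 fell by limma, and their differences lay between -0.0043 and 0.16, among them Bcor (0.03) and Sin3a (0.08). Of 9 relatives and partners of Maf, Nfatc1 rose (0.54, adjusted p = 0.00232) and 0 fell, and the small Maf genes Mafg (0.13) and Mafk (-0.12) did not pass.

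**Figure D5:**
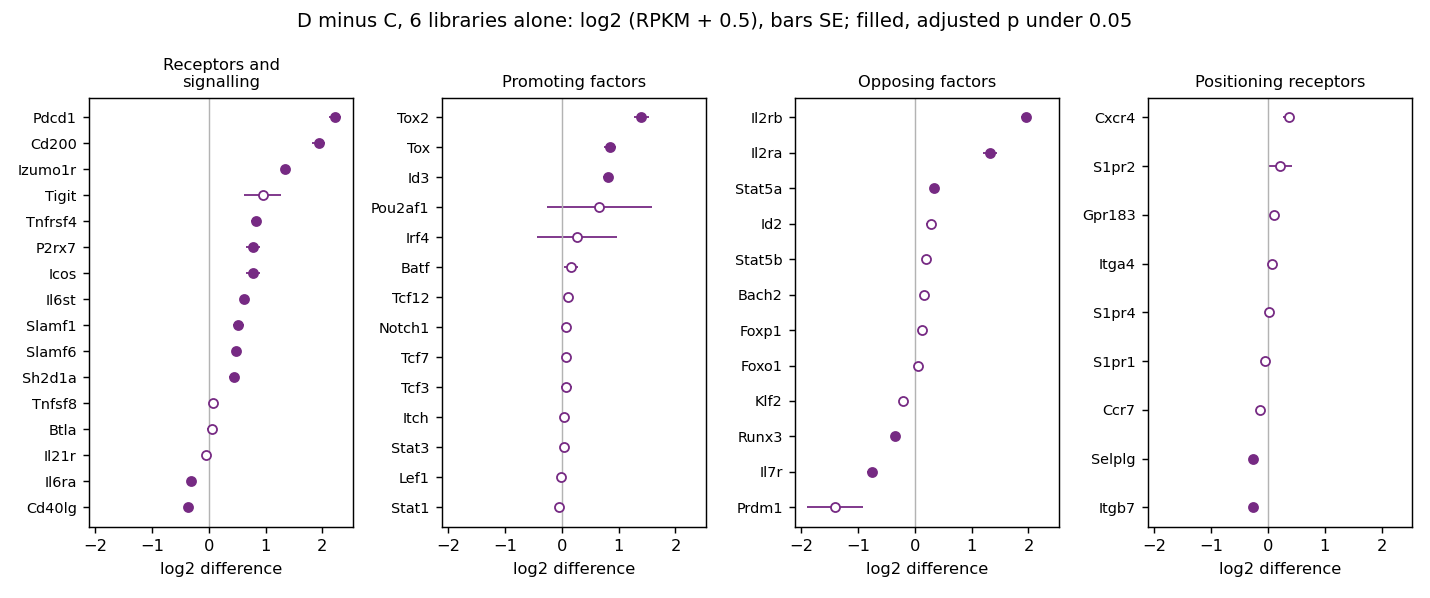
Log2 difference of (RPKM + 0.5), D minus C, in the fit of these 6 libraries (horizontal axes) for genes of 4 lists by role (rows; 1 of the 10 positioning receptors is not drawn), with SE bars. Filled points passed an adjusted p of 0.05. Pdcd1 (2.23) and Cd200 (1.93) lead the receptors, Tox2 (1.40) the promoting factors and Il2rb (1.95) the opposing ones, while most positioning receptors lie near 0.

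In the 12-library fit 0 genes of the lists named so far passed for D minus C by limma. For B minus A the counts were likewise 0 higher and 0 lower in each of them, and without A1 and B1, where 6.66% of all genes were called higher and 4.26% lower, the receptor list had 11 higher and 2 lower and the promoting list 4 higher and 0 lower. The TCR signal readouts had 10 of 13 higher and 0 lower for D minus C in the fit of 6 libraries (all genes, 3.35% and 1.45%), among them Nr4a1 (1.28), Nr4a3 (1.46), Spry1 (2.13) and Cd5 (0.81). In the 12-library fit of B minus A, 2 of these 13 passed, Cd5 (0.61, adjusted p = 0.0487) and Cd6 (0.59, 0.0463), where 0.569% of all genes were called higher. With the mouse as a block 0 genes were called higher in B, so both calls were lost.

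Markers of other cells that can carry these transcripts were set beside the 3 genes. B cells also express Cxcr5, and of 10 B cell markers Cd79a was measured here, at 4.52 to 8.45 RPKM in D, against 3.57 to 4.94 RPKM in C1 and C2 and 37.4 RPKM in C3. C3, the library highest in Cd79a, had 5.24 RPKM of Cxcr5, the highest of the 6 lower libraries, against 5.04 RPKM in C2. The part of B cells in the values of Cxcr5 was not tested. The plasma cell markers Jchain, Xbp1 and Irf4, 3 of 5 listed, summed to 25.9 to 33.0 RPKM in D, against 19.9 and 20.5 RPKM in C1 and C2 and 859 RPKM in C3. The myeloid markers Itgam and Cd74, 2 of 8, summed to 7.58 to 20.8 RPKM in D, against 4.74 to 7.43 RPKM in C1 and C2 and 211 RPKM in C3.

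Regulatory T cell transcripts moved with the 3 genes. The 6 markers Foxp3, Ikzf2, Il2ra, Ctla4, Tnfrsf18 and Ikzf4 summed to 62.7 to 71.0 RPKM in D, against 27.2 to 30.96 RPKM in C. They summed to 30.9, 68.1 and 61.3 RPKM in B1, B2 and B3, against 69.6, 29.6 and 27.8 RPKM in A1, A2 and A3. Cells were sorted as Foxp3-RFP negative, and how fully that gate left out regulatory T cells was not tested. In the D and C fit 6 of 6 rose and 0 fell (all genes, 3.35% and 1.45%), with Foxp3 itself at 3.25 to 3.99 RPKM in D, against 1.27 to 1.45 RPKM in C. Their part in the values of Bcl6, Cxcr5 and Maf was not tested. Of 9 effector and memory markers 3 were measured, and their sum was 30.5 to 32.5 RPKM in D, against 19.8 to 26.7 RPKM in C, with Eomes as the 1 that rose (3.56). Cd44, the surface marker gated low, was 6.41 to 7.37 RPKM in D, against 7.08 to 12.8 RPKM in C.

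The CD8 marker Cd8b1, 1 of 2, fell by 0.44 (10.2 to 11.2 RPKM in D, against 12.7 to 15.96 RPKM in C). The proliferation markers Mki67 and Top2a, 2 of 4, summed to 4.71 to 7.18 RPKM in D, against 1.82 and 2.72 RPKM in C2 and C1 and 24.3 RPKM in C3. The erythroid markers Hbb-bs and Hba-a2, 2 of 3, summed to 139, 21.95 and 145 RPKM in D1, D2 and D3. In C1, C2 and C3 the sum was 133, 8.13 and 155 RPKM. In B1, B2 and B3 it was 22.4, 144 and 134 RPKM, and in A1, A2 and A3 10.045, 176 and 134 RPKM. By label, the low library was thus that of mouse 2 in D and C and that of mouse 1 in B and A. What this division reflects was not tested. None of the B cell, plasma cell, myeloid, proliferation or erythroid markers passed in the D and C fit. Without C3, Irf4, Mki67 and Top2a passed as well, all higher in D.

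In the reference annotation each of the 3 genes overlaps a gene on the opposite strand, and the labels do not say whether counting used strand. The partner of Cxcr5, Bcl9l, was measured, and stood at 41.0 to 42.4 RPKM in D, against 48.6 to 54.0 RPKM in C. It was thus lower in the libraries where Cxcr5 was higher, as it was in A1 (38.5 RPKM) against B1 (52.7 RPKM). Whether reads of Bcl9l were counted for Cxcr5 was not tested. The partners of Bcl6 (Gm37419) and Maf (Gm15655) were not analysed here, so reads from them cannot be told apart from reads of the 2 genes.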

How the data were processed

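RNA was measured in 12 libraries. Per the labels' protocols, polyadenylated RNA was made into cDNA with SMART-seq v4 and into libraries with NexteraXT. STAR, mm9 and mm10 are named in the submitters' processing notes, without a STAR version or what each build was for. The read counter and annotation are not given in the sources used, nor is a strand setting. The authors deposited RPKM values per the file headers. From their steps, whole reads were recovered within 0.1 read for 100% of values examined, giving the depth of each library, and the recovery was tested on simulated data.

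Genes averaging 0.5 RPKM or more entered limma 3.58.1 (R 4.3.3), run on log2(RPKM + 0.5) with its trend option, a scale that understates changes of low genes. All 12 libraries were fitted without a block. Benjamini-Hochberg adjustment covered all genes within each comparison, limma's tests were two-sided, and exact permutation tests used mean log2 values. The labels name no molecular identifiers, so counting intervals (95%, exact Poisson) cover counting error only. The limma fits were tested on simulated data. Other steps used Python 3.11.15 with pandas 2.3.3, numpy 2.4.6, matplotlib 3.10.9 and scipy 1.17.1.

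Libraries with the same mouse number in the labels were taken to come from 1 animal, which is where the pairing comes from. Their deviations from the population means had a mean correlation across genes of -0.072 (18 pairs, from -0.61 to 0.38, 1 over 0.1). For libraries of different mouse numbers and populations the mean was 0.032. These correlations thus do not show the pairing, and statements by mouse follow the labelled numbers. The erythroid markers were low in mouse 2 in D and C but in mouse 1 in B and A, by label. Whether the mouse numbers of B and A match those of D and C was not tested further. The mouse number was fitted as a block as an alternative. It moved the B minus A count to 2 genes, against 223 without it.

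The members, lists and naming rule were chosen with earlier results of these data known. Every list member was counted, up to 4 that passed were named by smallest p (or up to 2 as values), and the 5 nearest genes were taken by distance, leaving out clone names. Some listed genes are not reported here. The alternatives changed the pseudocount (0.1 or 1) or the filter (none or 5 RPKM), or used median rescaling, quantile normalization, no trend, the block, limma-voom on recovered reads, the libraries compared alone, and leaving libraries out. Leaving libraries out of the fits of 6, and the block in those fits, were added after seeing the data.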

Additional observations from a re-analysis of the deposited data

How the results depend on the processing

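The 3 genes kept the sign of D minus C under every alternative run, and whether they passed turned on which libraries shared the estimate of spread. For D minus C (1.45 for Bcl6, 1.34 for Cxcr5 and 1.40 for Maf) the adjusted p with 12 libraries was 0.106 to 0.126. It was at most 0.000181 with the 6 libraries alone, at most 0.000571 in that fit with the mouse as a block, and at most 4.96e-05 without A1 and B1. Leaving out 1 library gave 1.42 to 1.49, 1.28 to 1.38 and 1.34 to 1.47 for the 3 genes in this order. With 12 libraries, the call for D minus C was gained without A1 or without B1 alone (288 and 398 of all genes called). In the fit of 6 it held without each library in turn (201 to 651 of all genes called).

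Without A1 and B1, the log2 difference of B minus A was 1.37, 1.68 and 1.16, that of D minus A 1.37, 1.54 and 1.28, and that of C minus B -1.45, -1.47 and -1.28, all past the threshold. The F test then gave adjusted p values of 4.02e-07, 4.40e-06 and 6.13e-05. For Cxcr5 the sign turned for C minus A (0.20), D minus B (-0.14) and the difference of steps (-0.34), none of them past the threshold. A1 and B1 were set aside because of their values, so the results without them are no independent evidence.

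Leaving out 1 library at a time gave, for Bcl6, Cxcr5 and Maf in this order, 0.70 to 1.37, 0.71 to 1.54 and 0.51 to 1.28 for D minus A, and -1.45 to -0.76, -1.47 to -0.74 and -1.28 to -0.61 for C minus B. For B minus A it gave 0.25 to 0.94, 0.38 to 1.202 and -0.0070 to 0.76, the last turning without A3. For C minus A it gave -0.75 to -0.08, -0.62 to 0.20 and -0.89 to -0.12, and for D minus B 0.0038 to 0.69, -0.14 to 0.59 and 0.12 to 0.79. The difference of steps ran from 0.51 to 1.202, from 0.13 to 0.96 and from 0.64 to 1.41, lowest without A1 or B1. The F test's adjusted p ran from 0.0354 to 0.265, from 0.0434 to 0.291 and from 0.0507 to 0.289. D minus A passed without A1, and C minus B without B1 for Bcl6 and Cxcr5 (with the 6 libraries alone, also for Maf). The F test passed without B1 for Bcl6 and Cxcr5 and without A1 for Bcl6.

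The count of genes called for D minus C was 1 with 12 libraries, 481 with 6 alone, 641 with 6 alone and the block, and 765 without A1 and B1. Without 1 library of the 12 it ran from 1 to 398. For B minus A it was 223, 380, 0 and 1094 in the same order, 3 with no trend, 300 with limma-voom on the recovered reads, 2 with the block in the fit of 12, and 0 to 461 without 1 library. Leaving out 1 library also gave 0 to 322 for C minus A and 0 to 261 for the difference of steps, both highest without C1 and 0 without each of the other libraries, 1 to 362 for D minus A (highest without A1), 0 to 386 for C minus B and 1 to 401 for the F test (both highest without B1). Without A1 and B1 it was 886 for D minus A, 776 for C minus B and 965 for the F test, against 1 each with 12 libraries. For D minus A it was 3 with the 6 libraries alone. The block changed no call on the 3 genes in the fit of 12 libraries (adjusted p of 0.198 to 0.209 for D minus C). The pseudocount, filter, rescaling, quantile, trend and limma-voom alternatives left every call on the 3 genes as it was. The lowest library, A3, holds 61 reads of Cxcr5 and 72 of Maf, which limits how well differences among the lower libraries can be seen.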
